A study of Homo sapiens with 6 samples.

Results

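The HOX genes encode homeodomain transcription factors that lie in 4 chromosomal clusters, Hoxa, Hoxb, Hoxc and Hoxd. Within a cluster the genes stand in the order in which they act along the body from head to tail, and genes at the same rank in different clusters are paralogues with the same number, from group 1 nearest the head to group 13 at the tail and the tips of the limbs. HOX proteins bind DNA together with cofactors of the TALE class (the PBX, MEIS and PKNOX proteins). The pattern of active HOX genes is kept through cell division by Polycomb and Trithorax chromatin proteins, so adult cells and many tumour lines still carry a HOX pattern that reflects where they came from. The mesenchyme of the first pharyngeal arch, which forms the jaws, is known for lacking HOX expression.

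The members were all rows of the deposited count table whose symbol is a HOX gene of mouse, which gave 39 of 21872 rows: 11 Hoxa, 10 Hoxb, 9 Hoxc and 9 Hoxd genes. Membership came from the symbol alone and no measured value entered it. The cells were MOC2, a mouse oral squamous cell carcinoma line. Bulk RNA was sequenced from 3 control libraries, from cells given control CRISPR/Cas9 lentivirus, and from 3 libraries of cells given lentivirus with CRISPR/Cas9 against HuR, whose genotype label is knockout and whose titles call them knockdown. Both groups thus carry a lentiviral Cas9 treatment. HuR, the product of Elavl1, binds AU-rich elements in mRNA. The protocol in the labels describes isolation of a single clone for the loss of HuR, and nothing says that the libraries of a group came from separate clones, so a p-value here speaks only for the scatter among these libraries, and that scatter may be technical.

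The libraries held 16158516 to 21294330 counts, of which 5224 to 6938 were HOX counts. Elavl1 mRNA was at 115 ± 6.57 CPM (counts divided by each library's TMM-scaled total) in control and 112 ± 5.70 CPM in knockout (SD, n = 3 each; edgeR adjusted p = 0.82), so its mRNA level does not check the labels. Knockout library 3 stood apart from the other knockout libraries, with a correlation of log2 CPM across genes of 0.924 and 0.931 against 0.978 between those 2 (genes are not independent replicates). The labelled carcinoma type was checked with 12 epithelial markers, whose summed level was 11711 to 14344 CPM in control against 5835 to 8570 CPM in knockout. Most of this came from the simple keratins Krt7, Krt8, Krt18 and Krt19. Of the squamous and basal markers on the list, Krt14 was at 453 ± 127 CPM in control, while Trp63 had no read there and Krt5 had 2. In knockout Krt14 was at 99.8 ± 112 CPM. In knockout libraries 1, 2 and 3 Trp63 had 28, 92 and 258 reads and Krt5 had 42, 10 and 3. The Trp63 row was divided by 11 as described next (edgeR adjusted p = 0.0165). A table row with 0 in control library 1 held multiples of 11 only, and such rows were divided by 11 before any test. Among the HOX genes 8 rows were of this kind: Hoxa11, Hoxc4, Hoxc5, Hoxc8, Hoxc11, Hoxc12, Hoxc13 and Hoxd10. Left undivided, their CPM would be about 11 times as high.

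MOC2 cells expressed a HOX pattern whose reads came mostly from the Hoxb cluster. In the knockout libraries the make-up of the HOX reads differed, and after the division by 11 the HOX total was somewhat lower. All HOX genes together were at 343 ± 27.8 CPM in control against 314 ± 5.35 CPM in knockout (SD, n = 3 each). By library this was 325, 330 and 375 CPM in control against 310, 313 and 320 CPM in knockout, without overlap. The lower total rests on the division. Hoxc13 alone held 462, 1727 and 1111 counts in the knockout libraries as deposited and 42, 157 and 101 after it. Undivided, the knockout total would not be lower and the groups would overlap. Of the 39 genes, 5 were higher in knockout (Hoxa7, Hoxb7, Hoxb8, Hoxc9 and Hoxc13), 7 were lower (among them Hoxa2, Hoxa3, Hoxa9, Hoxb9, Hoxb13 and Hoxd13), 11 did not pass, 10 had too few counts to test and 6 had no count. Changed means an adjusted p under 0.05 in edgeR's quasi-likelihood test over all 12293 genes tested. In that test 35.7% of all genes were called, 20.3% higher and 15.4% lower. The calls among the HOX genes were 12 of the 23 with enough counts, and which members reached the test depended on their counts in the group where they were high, so this share is a description. Leaving out control library 1, 2 or 3 left 3, 3 and 3 HOX genes higher and 4, 4 and 3 lower. Without knockout library 3, 5 were higher and 8 lower. In bulk RNA, fewer cells that express a gene and less RNA per cell cannot be told apart.

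**Figure D1:**
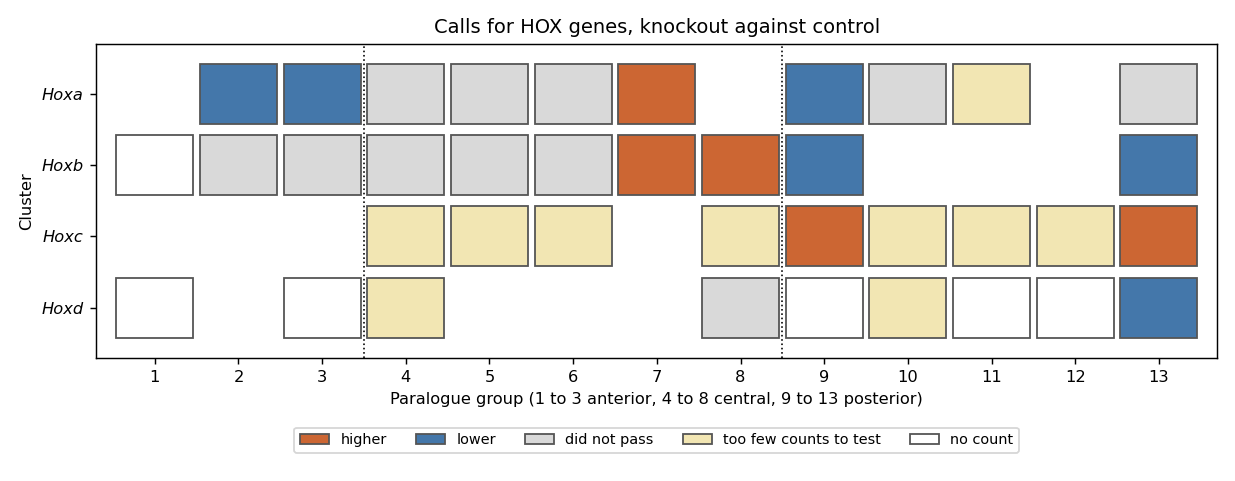
Each box is a HOX gene, placed by paralogue group (horizontal axis) and cluster (vertical axis), and its colour gives the call of knockout against control. A place without a box is not plotted. The lower calls drawn stand in Hoxa groups 2 and 3 and in groups 9 and 13, and the higher calls in groups 7 and 8 and in the Hoxc cluster.

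By position along the clusters, the anterior genes (groups 1 to 3) gave lower calls, Hoxa2 and Hoxa3 among them, and no higher call among the 5 of 8 rows that could be tested. The anterior Hoxb genes tested did not share this: Hoxb2 and Hoxb3 had log2 fold changes of 0.30 and 0.16, overlapped between the groups and did not pass. The central genes (groups 4 to 8) gave 3 higher calls and no lower call among 10 tested of 15 rows, or 30.0% called, near the 35.7% of all genes. The posterior genes (groups 9 to 13) gave 2 higher and 4 lower calls among 8 tested of 16 rows, or 75.0% called. Some of these, Hoxc9, Hoxc13, Hoxb13 and Hoxd13 among them, reached the test through counts in the group where they were high. Hoxc13 had 0 reads in control and 300 in knockout, and Hoxd13 had 56 and 1. The posterior share is therefore a description. The median log2 fold change over the 23 HOX genes tested was 0.30, against 0.03 over all genes tested, and it was also 0.30 with Hoxc13 set to its lower bound. This median hides changes in opposite directions. For 18 of the 23 genes all knockout libraries lay to one side of all control libraries in CPM, 10 higher and 8 lower, where the same held for 57.6% of all genes tested, 29.7% higher and 27.9% lower.

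Hoxb9, which with its group 9 paralogues patterns the thoracic skeleton, held the most HOX reads in control. It was at 152, 169 and 185 CPM in control libraries 1, 2 and 3. In knockout libraries 1, 2 and 3 it was at 109, 70.4 and 44.5 CPM. The groups do not overlap, and knockout library 3 is the lowest. The fitted decrease was 2.26-fold (95% interval 1.34 to 3.80, edgeR adjusted p = 0.0286). The call was lost without control library 1, 2 or 3 (edgeR adjusted p = 0.0672, 0.0808 and 0.0895) or knockout library 2 (edgeR adjusted p = 0.0797), with decreases between 2.19-fold and 2.38-fold. As a share of all HOX reads, Hoxb9 made up 46.7%, 51.3% and 49.3% in the control libraries, with exact 95% binomial (Clopper-Pearson) intervals from 45.5% to 52.5%. In knockout libraries 1, 2 and 3 the share was 35.3% (34.0 to 36.5), 22.5% (21.5 to 23.6) and 13.9% (12.99 to 14.88). These intervals cover counting error only, and reads are not scaled by gene length, so a share compares libraries and not genes.

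The neighbours of Hoxb9 on its anterior side moved the other way. Hoxb8, known for blocking differentiation of myeloid progenitors when overexpressed, was at 33.1, 28.2 and 32.4 CPM in control against 43.1, 53.3 and 74.5 CPM in knockout. Every knockout library lay above every control library, and knockout library 3 was the highest. The increase was 1.82-fold (1.27 to 2.62, edgeR adjusted p = 0.0235). Hoxb7, a homeobox gene of the trunk, was at 14.1, 13.5 and 14.8 CPM in control against 21.9, 24.5 and 38.3 CPM in knockout. It was 1.99-fold higher (1.35 to 2.95, edgeR adjusted p = 0.0193), again with knockout library 3 at the top. Both calls were lost without any 1 control library, with edgeR adjusted p = 0.0704, 0.0874 and 0.0735 for Hoxb7 and 0.0693, 0.105 and 0.084 for Hoxb8 without control library 1, 2 and 3. Counted within each library, where scaling cancels, there were 0.219, 0.167 and 0.175 Hoxb8 reads per Hoxb9 read in control and 0.395, 0.757 and 1.67 in knockout. Knockout library 3 was the only library with more Hoxb8 than Hoxb9 reads.

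**Figure D2:**
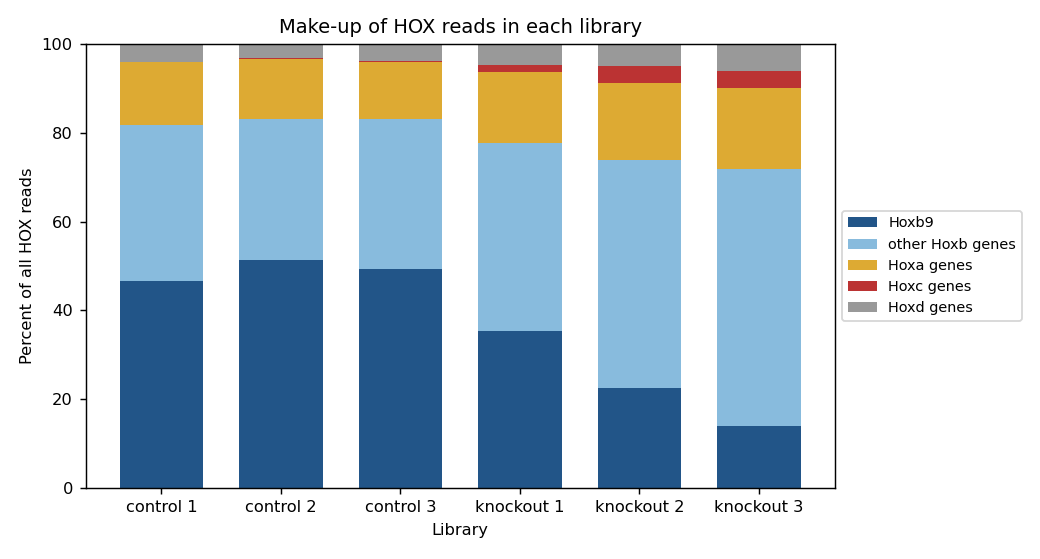
Stacked bars give the percent of all HOX reads in each library (vertical axis) from Hoxb9, the other Hoxb genes and the Hoxa, Hoxc and Hoxd genes; each bar is 1 library. The Hoxb9 part is 46.7% to 51.3% in control and 35.3%, 22.5% and 13.9% in knockout libraries 1, 2 and 3.

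Hoxb13, at the posterior end of the cluster and known for prostate and distal gut identity, was low in control and lower in knockout. It was at 1.78, 2.50 and 2.25 CPM in control against 0.327, 0.245 and 0.0612 CPM in knockout, where it rested on 6, 5 and 1 reads. The decrease was 9.84-fold (4.14 to 23.4, edgeR adjusted p = 0.00439). The other Hoxb genes did not pass. Hoxb2 and Hoxb3, which act in the hindbrain, were at 1.22 ± 0.437 and 14.5 ± 2.77 CPM in control against 1.52 ± 0.719 and 16.2 ± 5.41 CPM in knockout, and their groups overlapped. Hoxb4, which promotes expansion of blood stem cells when overexpressed, was at 13.3 ± 2.09 CPM in control against 9.25 ± 1.81 CPM in knockout (log2 fold change -0.53, edgeR adjusted p = 0.113). Without knockout library 3 it passed at -0.67 (edgeR adjusted p = 0.0252). Hoxb5 was at 4.39 ± 0.649 and 6.56 ± 0.735 CPM (edgeR adjusted p = 0.098) and Hoxb6 at 34.2 ± 3.77 and 40.1 ± 6.69 CPM (edgeR adjusted p = 0.325) in control and knockout. Hoxb1, a hindbrain gene, had no count in any library, which allows up to 0.0265 CPM over the 6 libraries (3 counts).

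In the Hoxa cluster the anterior genes Hoxa2 and Hoxa3 fell. Hoxa2, the selector gene of the second pharyngeal arch, was at 1.68, 0.884 and 1.46 CPM in control against 0.381, 0.490 and 0.551 CPM in knockout. Hoxa3, needed for the thymus and parathyroid, was at 5.34, 5.45 and 6.14 CPM in control against 2.23, 3.68 and 3.12 CPM in knockout. Neither gene overlapped between the groups. The decreases were 2.81-fold for Hoxa2 (1.43 to 5.52, edgeR adjusted p = 0.0304) and 1.87-fold for Hoxa3 (1.19 to 2.95, edgeR adjusted p = 0.0425). Neither call held without every library in turn. Hoxa2 lost its call without control library 1 or 3 (edgeR adjusted p = 0.11 and 0.111) or knockout library 1 or 2 (0.0785 and 0.0792). Hoxa3 lost it without control library 1, 2 or 3 (0.101, 0.114 and 0.144) or knockout library 1 (0.0811). With the replicate number as a block Hoxa2 and Hoxa3 had edgeR adjusted p = 0.0781 and 0.0773.

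Hoxa7, a central gene, rose. It was at 14.2, 13.8 and 14.9 CPM in control against 25.8, 29.0 and 29.7 CPM in knockout. The libraries of each group lay close together, and the increase was 1.97-fold (1.57 to 2.47, edgeR adjusted p = 0.00282). Hoxa7 and Hoxb7 are the only genes of paralogue group 7 in the table, and both were called higher. The genes between Hoxa3 and Hoxa7 did not pass. Hoxa4 was at 1.67 ± 0.528 CPM in control against 2.12 ± 0.459 CPM in knockout. Hoxa5, needed for lung development, was at 4.49 ± 0.399 and 6.13 ± 0.760 CPM (edgeR adjusted p = 0.166), and Hoxa6 was at 1.30 ± 0.110 and 2.29 ± 0.239 CPM (edgeR adjusted p = 0.0635). For Hoxa5 and Hoxa6 the groups did not overlap.

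Hoxa9, a regulator of blood progenitors and a leukaemia gene, fell next to Hoxa7. It was at 3.18, 1.82 and 3.40 CPM in control against 0.163, 0.539 and 0.429 CPM in knockout, where it rested on 3, 11 and 7 reads. The decrease was 7.28-fold (3.12 to 17.0, edgeR adjusted p = 0.00687). There were 4.47, 7.57 and 4.38 Hoxa7 reads per Hoxa9 read in the control libraries and 158, 53.8 and 69.3 in the knockout libraries. Hoxa10, a gene of the uterus and hindlimb, stood at 7.24 ± 0.834 CPM in control against 5.72 ± 1.36 CPM in knockout (edgeR adjusted p = 0.328), and its groups overlapped. Hoxa13, which acts in the distal limb and the genital tubercle, was at 0.749, 0.246 and 0.486 CPM in control against 1.25, 1.13 and 5.82 CPM in knockout. Knockout library 3 was far above the other libraries. Its log2 fold change was 2.44 (0.49 to 4.38), which did not pass (edgeR adjusted p = 0.0571). It passed with DESeq2 (adjusted p = 0.0136) and without knockout library 1 or 2 (edgeR adjusted p = 0.0462 and 0.0485). Hoxa11 had 1 read, in knockout library 3.

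**Figure D3:**
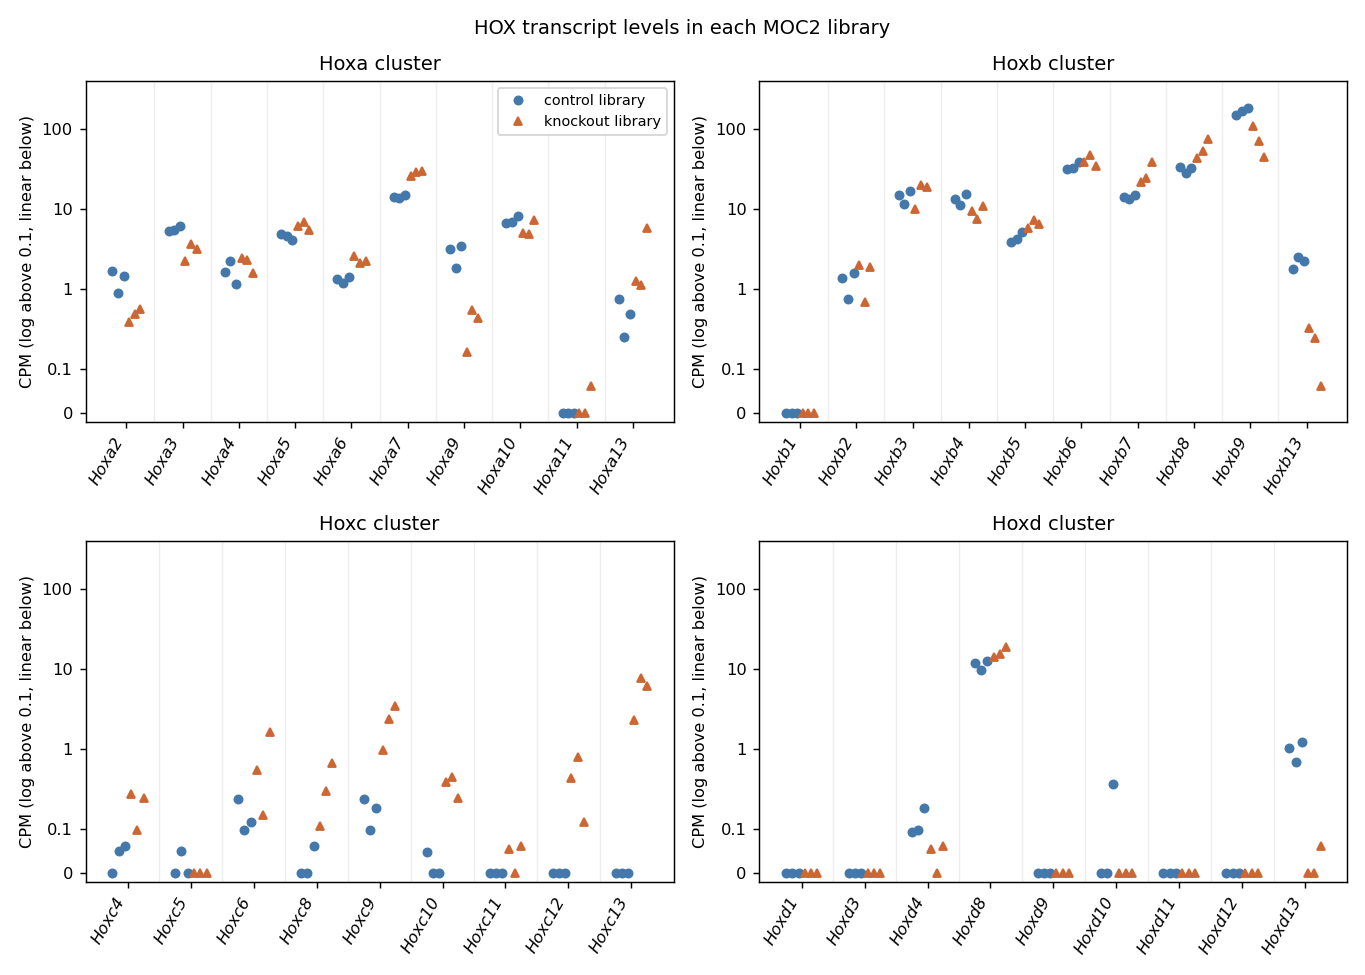
Points give the CPM of each HOX gene (vertical axis, logarithmic above 0.1 and linear below) in the 3 control libraries (circles) and the 3 knockout libraries (triangles), with library 1 to 3 from left to right and genes in order of paralogue number in 4 panels. Hoxa9, Hoxb9, Hoxb13 and Hoxd13 are lower in every knockout library than in any control library, and Hoxc13 is at 0 in all control libraries.

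Along the Hoxa and Hoxb clusters neighbouring genes were also compared as pairs. The log2 ratio of the reads of neighbouring tested genes, taken within each library, does not depend on scaling. In Hoxa it did not overlap between the groups for 4 of 9 neighbour pairs: Hoxa3 and Hoxa4, Hoxa7 and Hoxa9, Hoxa9 and Hoxa10, and Hoxa10 and Hoxa13. Their mean log2 ratios changed by -1.29, 3.87, -2.54 and -2.47 from control to knockout. In Hoxb it did not overlap for 5 of 8 pairs, with the largest shifts between Hoxb8 and Hoxb9 (2.10) and between Hoxb9 and Hoxb13 (2.14). Of all single genes tested, 57.6% did not overlap in CPM, and no share over other gene pairs was taken. Neighbouring pairs share a gene, so the pairs are not separate observations. With 3 libraries against 3 an exact permutation test cannot go below 0.1, so no p is given for these pairs, which were examined after the values had been seen. Transcripts of neighbouring HOX genes can share exons or run antisense to each other, and no source used here says how the counting split such reads.

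The Hoxc cluster was nearly silent in control and was read in every knockout library. All Hoxc genes together had 11, 6 and 7 reads in control libraries 1, 2 and 3 and 93, 242 and 206 reads in knockout libraries 1, 2 and 3. These were 0.159%, 0.0892% and 0.113% of HOX reads in control (exact intervals from 0.0328% to 0.284%) and 1.64% (1.32 to 2.00), 3.79% (3.34 to 4.29) and 3.94% (3.43 to 4.51) in knockout. In level the cluster went from 0.412 ± 0.111 to 9.85 ± 4.16 CPM (SD, n = 3 each). Hoxc13 gave 42, 157 and 101 of these reads in knockout libraries 1, 2 and 3, the most of any Hoxc gene in each. Of the 9 Hoxc rows 6 were divided by 11, Hoxc13 among them, which held 462, 1727 and 1111 in knockout as deposited. The reads, shares, intervals and levels of the cluster given here rest on that division. Undivided, the knockout shares would be several times as high.

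Hoxc13, known for controlling keratin genes in hair follicles and nails, had no read in any control library and 42, 157 and 101 reads in knockout libraries 1, 2 and 3. Its level in knockout was 2.29, 7.69 and 6.19 CPM. Taking 3 counts in the whole control group as the limit of a count of 0, it was at least 106-fold higher (edgeR adjusted p = 0.00443). The bound was 66.8-fold without control library 1 and 68.7-fold without control library 2. The row had been divided by 11, and as deposited it held 462, 1727 and 1111 in knockout, a bound of 1158-fold, with the edgeR adjusted p = 0.00284. Its neighbour Hoxc12, also known from hair follicles, was at 0 in control and at 8, 16 and 2 reads in knockout. That is at least 9.15-fold higher, but Hoxc12 had too few counts to test after the division; as deposited it was tested (edgeR adjusted p = 0.012). The bound of Hoxc12 was 5.79-fold and 5.95-fold without control library 1 or 2 and 5.59-fold without knockout library 2.

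Hoxc9, a gene of the thoracic region whose row was not divided, rose too. It had 5, 2 and 3 reads in control and 18, 49 and 56 in knockout. That is 0.234, 0.0982 and 0.182 CPM in control against 0.981, 2.40 and 3.43 CPM in knockout. The groups do not overlap, and the increase was 12.7-fold (4.45 to 36.5, edgeR adjusted p = 0.0062). Hoxc9 passed without each library in turn.

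The other Hoxc genes had too few counts to test. Hoxc10, which acts in the lumbar region and hindlimb, had 1 read in control and 7, 9 and 4 reads in knockout, a ratio of 21.1 (counting interval 3.38 to 876). Hoxc8, a gene of brachial motor neurons, had 1 read in control and 2, 6 and 11 in knockout, a ratio of 20.1 (3.19 to 834), and Hoxc4 had 2 reads in control and 5, 2 and 4 in knockout, a ratio of 5.81 (1.27 to 53.9). The single control reads of Hoxc10 and Hoxc8 came from control libraries 1 and 3, without which the bounds were 4.46-fold and 4.80-fold; the ratio of Hoxc10 was 13.7 without control library 2 and that of Hoxc8 was 12.70, 13.05 and 12.01 without control library 1, control library 2 and knockout library 3. The ratio of Hoxc4 was 3.68 without control library 1. Hoxc6 was at 0.234, 0.0982 and 0.122 CPM in control against 0.545, 0.147 and 1.65 CPM in knockout, and its groups overlapped; without knockout library 2 it was tested and passed (log2 fold change 2.78, edgeR adjusted p = 0.0399). Hoxc11 had 2 reads in knockout and Hoxc5 had 1 read in control.

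**Figure D4:**
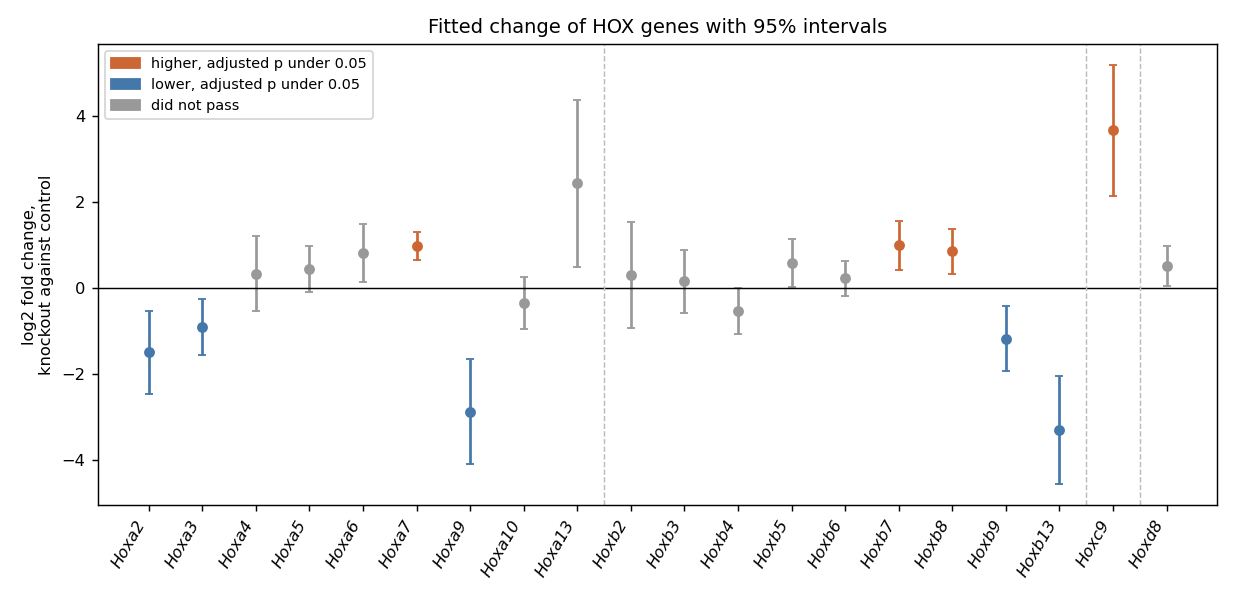
Points give the fitted log2 fold change of knockout against control (vertical axis) with its 95% interval for 20 HOX genes tested, in order of cluster and paralogue number (horizontal axis). Hoxc13 and Hoxd13 are left out because one group held at most 1 read. Hoxa7, Hoxb7 and Hoxb8 lie near 1, Hoxa9 and Hoxb13 near -3, and Hoxc9 at 3.67.

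The Hoxd cluster was read mainly from Hoxd8. Hoxd8, a central gene, was at 11.8, 9.87 and 12.7 CPM in control against 14.3, 15.6 and 19.1 CPM in knockout. The groups did not overlap, but the log2 fold change of 0.51 (0.05 to 0.97) did not pass (edgeR adjusted p = 0.0819). Hoxd13, which patterns the digits and genitalia, was at 1.03, 0.688 and 1.22 CPM in control, from 22, 14 and 20 reads, and had 1 read over all knockout libraries, in library 3. It was 53.0 times lower (counting interval 9.13 to 2131, edgeR adjusted p = 0.00411). Without knockout library 1 or 2 the ratio was 35.4 and 33.4, and without knockout library 3 Hoxd13 was at 0 in knockout and at least 12.4-fold lower. Hoxd10 had 6 reads, all in control library 3, and Hoxd4 had 7 reads in control and 2 in knockout. Hoxd1, Hoxd3, Hoxd9, Hoxd11 and Hoxd12 had no count in any library.

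Compared by paralogue group, groups 9 and 13 held members that went opposite ways. In group 9, Hoxa9 and Hoxb9 fell, Hoxc9 rose and Hoxd9 had no count. In group 13, Hoxb13 and Hoxd13 fell, Hoxc13 rose and Hoxa13 did not pass. In groups 4, 5 and 6, with 2 genes tested in each, none was called, against 35.7% of all genes. The other rows of these groups had too few counts to test. Without a call, Hoxa5, Hoxa6 and Hoxb5 lay above control and Hoxb4 below it with no overlap of the groups. Summed by cluster, Hoxa was at 46.4 ± 1.71 CPM in control against 54.1 ± 4.28 CPM in knockout, Hoxb at 284 ± 24.9 and 234 ± 5.85 CPM, and Hoxd at 12.7 ± 1.92 and 16.4 ± 2.54 CPM (SD, n = 3 each). For the HOX total and the Hoxa, Hoxb and Hoxc sums a two-sided exact permutation test gave p = 0.1, the smallest that 3 libraries against 3 can give, and for Hoxd it gave p = 0.2 (0.125 and 0.2 adjusted over the 5 tests).

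Of the TALE cofactors that bind DNA with HOX proteins, 5 of 9 rose, none fell and 4 did not pass, against 20.3% higher and 15.4% lower among all genes tested. Meis2 rose 2.12-fold, from 29.0 ± 0.801 to 61.4 ± 17.3 CPM (edgeR adjusted p = 0.0102), Meis1 1.66-fold to 27.5 ± 3.95 CPM (0.0212) and Pbx2 1.53-fold to 48.6 ± 4.05 CPM (0.0109). Pknox2 also rose, from 0.0811 ± 0.103 to 0.991 ± 0.420 CPM (0.0189), and it entered the test only through its knockout counts. Without control library 1, 2 or 3, the numbers that rose were 2, 2 and 1, and with the replicate number as a block 3 rose. Without knockout library 3, 1 TALE gene was called lower.

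Among 18 genes of the CDX and retinoic acid pathway, which induces HOX genes in the embryo, 4 rose, 2 fell, 6 did not pass, 2 had too few counts and 4 had no count, Cdx1 and Cdx4 among the last. The calls were 6 of the 12 tested, against 35.7% of all genes. Genes near 0 in control, such as Cyp26b1, entered the test only through their knockout counts, so this share is a description. Without knockout library 3 the number higher was 7. Without control library 1 none was called lower, and without control library 3 there was 1. Cyp26b1, an enzyme that degrades retinoic acid, rose from 0.389 ± 0.151 to 17.5 ± 2.00 CPM (45.0-fold, edgeR adjusted p = 0.000275). The receptors Rarb and Rarg rose 3.19-fold and 2.18-fold (edgeR adjusted p = 0.00761 and 0.00169), and the retinal reductase Dhrs3 fell 9.34-fold (0.0139; 0.0514 without control library 1).

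Of 23 Polycomb subunits, which keep HOX genes silent, 3 rose, 2 fell and 18 did not pass, or 21.7% called against 35.7% of all genes. Cbx8 rose 1.99-fold (edgeR adjusted p = 0.00391) and Bmi1 and Pcgf2 1.56-fold and 1.46-fold (0.0257 and 0.0212), while Pcgf6 fell 1.57-fold (0.00877). The calls of Bmi1 and Pcgf2 were lost without any 1 control library or knockout library 2, and that of Bmi1 also without knockout library 1. Of 11 Trithorax and H3K27 demethylase genes, which keep HOX genes active, none rose, 2 fell and 9 did not pass, or 18.2% called. Without knockout library 3, 1 of them was called higher. The H3K79 methyltransferase gene Dot1l fell 1.80-fold (edgeR adjusted p = 0.00562) and Wdr5 1.37-fold (0.0367; 0.0597 with the replicate number as a block and 0.0891, 0.123, 0.0975 and 0.0619 without control library 1, 2 or 3 or knockout library 1).

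Genes next to the HOX clusters were looked at from a list of 22 symbols, of which 21 had a row and 18 were tested. Of these 18, 2 rose, 4 fell and 12 did not pass, or 33.3% called against 35.7% of all genes. By name, Chn1 fell 6.24-fold (edgeR adjusted p = 0.0023), Snx11 2.13-fold (0.00508) and Lnpk 1.39-fold (0.0395), and Calcoco1 rose 3.90-fold (0.0225). Skap1, beside the Hoxb cluster, had 43, 27 and 19 reads in control and 0, 0 and 1 in knockout, and was called lower (edgeR adjusted p = 0.0025). The calls of Lnpk and Calcoco1 were lost without any 1 control library, and that of Lnpk also without knockout library 2 and with the replicate number as a block. The homeobox genes Evx1 and Evx2, at the posterior ends of Hoxa and Hoxd, had 1 read each. Of the non-coding cluster transcripts and microRNAs listed, 17 symbols matched no row and were not analysed here.

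Fibroblast and epithelial markers also differed between the groups. Of 11 fibroblast markers, 4 rose, 1 did not pass, 5 had too few counts and Lum had none. Of the 11, 6 stayed under 1 CPM in every library. Their summed level was 17.6 to 25.0 CPM in control against 443 to 468 CPM in knockout, with Col3a1 rising from 0.732 ± 0.121 to 226 ± 9.01 CPM. Of 12 epithelial markers 8 fell, 1 rose, 2 did not pass and 1 had too few counts. Among all genes tested 20.3% were called higher and 15.4% lower. Markers near 0 in control, such as Col3a1, entered the test through their knockout counts. Trp63 was the epithelial marker that rose. Krt5, which was not tested, also had more reads in every knockout library than in any control library. The 6 endothelial and 5 skeletal muscle markers summed to at most 1.96 and 1.41 CPM in any library. The 6 immune markers summed to at most 6.04 CPM, except 36.9 CPM in knockout library 3, and of these Itgam and Adgre1 were at 0 everywhere. The part of these cell type markers in the HOX changes was not tested.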

How the data were processed

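The authors deposited whole-number counts per gene symbol for 6 libraries. STAR 2.7.1a, featureCounts and the build hg38 are listed per the submitters' processing notes, without role or order; the symbols are those of mouse, and no source used here gives the annotation or strand setting. Every value was a multiple of 11 in the 1704 rows at 0 in control library 1 that had any count; these rows were divided by 11, for a reason no label gives. Counts were analysed with edgeR 4.0.16 (R 4.3.3): filterByExpr, TMM scaling, robust quasi-likelihood test of knockout against control over 12293 genes, adjusted by Benjamini-Hochberg and called under 0.05. Intervals and standard errors come from the fold change and test statistic. DESeq2 1.42.0, limma-voom (limma 3.58.1), other scalings and filters, a replicate block and leaving out each library were alternatives. The fit was tested on simulated counts. Every pair of libraries of a group differed by more than sampling noise. HOX genes with at least 10 counts are named, and up to 4 called genes averaging 1 CPM or more over all libraries, from each other list. Skap1, Krt5, Krt7, Krt8, Krt14, Krt19, Trp63, Pknox2, Evx1, Evx2, Cdx1, Cdx2, Cdx4, Lum, Six2, Tbx4, Hand1, Itgam, Adgre1 and HOX genes with fewer counts were named after their values were seen. Some members of these lists are not reported here. Members and lists were chosen with earlier results of these data known.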

Additional observations from a re-analysis of the deposited data

How the results depend on the processing

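No HOX gene tested changed direction with a call under any alternative. Under DESeq2 size factors, no scaling factor, upper-quartile scaling and limma-voom all 23 HOX genes kept their side of the threshold. As deposited and with no filter, 1 call was lost each time (Hoxa2, edgeR adjusted p = 0.0501, and Hoxa3, 0.0512). With no filter Hoxc10 and Hoxc12, not tested in the fit the report gives, passed (edgeR adjusted p = 0.0248 and 0.0318), which made 7 higher. With no filter the median log2 fold change of HOX genes was 0.42, over 33 genes; the stricter filter tested 20, leaving out Hoxa2, Hoxc9 and Hoxd13, and called 4 higher and 5 lower with no Hoxd gene among them. Leaving out 1 library gave 3 to 7 HOX genes higher and 3 to 8 lower, a HOX median of 0.25 to 0.35, and 1166 to 3178 higher and 1130 to 2843 lower among all genes. The lowest counts came without a control library, and the cause was not tested. Deviations of same-numbered libraries correlated at -0.0487, 0.256 and 0.0219, against -0.249 to 0.192 between unlike numbers. With 3 libraries in each group this cannot settle whether the numbers pair them. With the replicate block 5 HOX genes were higher and 5 lower, and 1976 and 1615 of all genes. Depth limits the 10 HOX genes that had 1 to 49 reads over all libraries, which were not tested.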

Other observations

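Other patterning transcription factors also differed between the groups. Of 15 limb and trunk patterning genes, 6 rose, none fell, 4 did not pass, 2 had too few counts and 3 had no count, so 6 of the 10 tested were called, against 35.7% of all genes. With DESeq2, and without knockout library 1, 1 was called lower. Tbx3 and Tbx2, T-box repressors of the limb and mammary bud, rose from 0.415 ± 0.226 to 30.5 ± 10.9 CPM and from 0.336 ± 0.173 to 8.27 ± 1.55 CPM (SD, n = 3 each; edgeR adjusted p = 0.000481 and 0.000857). Lmx1b and En1, which set the dorsal and ventral sides of the limb, rose 29.7-fold and 5.65-fold (edgeR adjusted p = 0.000522 and 0.0022). The limb genes Tbx4 and Hand1 had no count. A gene near 0 in control entered the test only through its knockout counts.

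Of 24 craniofacial patterning genes, 9 rose, 1 fell, 9 did not pass and 5 had too few counts, so 52.6% of the 19 tested were called against 35.7% of all genes. Here too genes near 0 in control, such as Dlx5 and Dlx6, entered the test only through their knockout counts, so this share is a description. Dlx5, a gene of the jaw, rose from 0.180 ± 0.104 to 6.73 ± 3.13 CPM (edgeR adjusted p = 0.0019), and its neighbour Dlx6 had 1 read in each control library and was 76.8 times higher (counting interval 25.9 to 375). Msx1 and Prrx2, genes of facial and limb mesenchyme, rose 7.21-fold and 3.12-fold (edgeR adjusted p = 0.00113 for both). Six2 was the gene that fell, and its call was lost with no filter, with DESeq2, with limma-voom and without each library in turn. The lists were chosen with earlier results of these data known.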
